A study of Mus musculus with 18 samples.

Results

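The widest cohesin peaks that were present in every SMC1A peak list of the study were examined. Overlapping peaks (1 bp or more) of the 4 SMC1A lists on chromosomes 1 to 19 were joined, which gave 34329 regions, of which 12088 were in all 4 lists. Each of these was given the width of its widest peak in each list and ranked by the lowest of the 4 widths, and the 500 highest were taken, 4.14% of the 12088. The 500 are called the widest regions here. They were thus chosen by peak width, and their widths are described and not tested.

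Cohesin is a ring complex built on SMC1A and SMC3 that extrudes loops of chromatin, and it is commonly halted at sites bound by the zinc finger protein CTCF. Cohesin is also found at active promoters and enhancers. SATB1 is a chromatin organiser abundant in thymocytes. It acts on lineage genes in double-positive (DP) thymocytes, which carry both CD4 and CD8.

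DP thymocytes were sorted from the thymus of Satb1 KO mice and of WT mice, and both genotypes had been given tamoxifen, with which the KO was induced. The labels do not name the Cre driver, the age of the mice or whether replicates came from separate animals, so p-values measure only the spread between these samples. Proteins were mapped by CUT&RUN, in which an antibody guides a nuclease to its target and the released DNA is sequenced, so the lists do not check the loss of Satb1 itself. The lists used were 2 for SMC1A per genotype and, for CTCF, 2 of KO and 1 of WT, 7 of the 18 samples, and replicate numbers 1 and 2 are also the batch numbers of the labels. The SMC1A lists held 27459 and 20172 peaks in KO and 19466 and 20152 in WT on these chromosomes, and the CTCF lists 54222 and 22351 in KO and 38222 in WT. Peak lists carry no read depth. A proxy, the lowest 1% of the local backgrounds that the peak caller's values imply, was 0.633 and 0.384 reads in KO and 0.533 and 0.465 reads in WT for SMC1A. KO replicate 1 was the highest of the 4 and also had the most peaks. For CTCF the proxy was 1.82 and 3.28 reads in KO and 1.02 reads in WT. There KO replicate 2 had the highest proxy and the fewest peaks.

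Most of the widest regions lay at promoters, so the RefSeq promoter of the first 6 of them that cover a whole promoter of the table is shown (GRCm38.p6, 250 bases before to 50 after the start, 5′ to 3′ on the gene's strand). They are those of LOC108167694, an uncharacterised gene (chr9:124423351-124423650, minus strand), Cited2, a transcriptional co-regulator (chr10:17722978-17723277, plus), Lbh, a transcription cofactor (chr17:72918055-72918354, plus), 5031425E22Rik, a non-coding transcript beside Kmt2e (chr5:23433287-23433586, minus), Slc43a2, an amino acid transporter (chr11:75531444-75531743, plus), and Cxcr4, the chemokine receptor (chr1:128592250-128592549, minus). Capitals mark matches, on either strand, to 6 letter patterns: AGGNGGC of the CTCF motif's core, the SP box GGGCGG, the NFY box CCAAT, the ETS pattern CCGGAAG, the CRE pattern TGACGTCA and the TATA pattern TATAAA. Overlapping matches run together.
LOC108167694: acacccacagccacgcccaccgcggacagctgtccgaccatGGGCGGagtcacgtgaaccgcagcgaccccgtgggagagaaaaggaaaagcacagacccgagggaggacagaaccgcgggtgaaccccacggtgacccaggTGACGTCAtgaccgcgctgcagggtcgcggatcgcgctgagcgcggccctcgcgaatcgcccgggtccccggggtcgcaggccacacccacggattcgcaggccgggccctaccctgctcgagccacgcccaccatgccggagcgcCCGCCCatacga
Cited2: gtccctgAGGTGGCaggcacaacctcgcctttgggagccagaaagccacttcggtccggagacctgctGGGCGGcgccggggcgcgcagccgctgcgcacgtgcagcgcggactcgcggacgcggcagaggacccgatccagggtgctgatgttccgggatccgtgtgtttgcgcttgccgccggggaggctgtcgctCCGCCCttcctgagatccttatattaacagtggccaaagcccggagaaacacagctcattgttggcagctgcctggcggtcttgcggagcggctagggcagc
Lbh: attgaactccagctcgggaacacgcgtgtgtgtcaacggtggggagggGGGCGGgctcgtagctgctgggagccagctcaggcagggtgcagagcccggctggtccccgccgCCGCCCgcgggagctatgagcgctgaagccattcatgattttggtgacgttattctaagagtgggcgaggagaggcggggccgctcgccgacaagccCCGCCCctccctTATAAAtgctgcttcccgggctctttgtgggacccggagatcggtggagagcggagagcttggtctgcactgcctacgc
5031425E22Rik: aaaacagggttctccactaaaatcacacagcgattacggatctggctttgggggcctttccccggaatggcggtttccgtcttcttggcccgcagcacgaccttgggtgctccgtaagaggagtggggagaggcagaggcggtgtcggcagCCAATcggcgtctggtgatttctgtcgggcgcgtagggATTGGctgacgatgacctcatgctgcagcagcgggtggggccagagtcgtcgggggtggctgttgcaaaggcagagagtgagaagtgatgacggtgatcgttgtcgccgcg
Slc43a2: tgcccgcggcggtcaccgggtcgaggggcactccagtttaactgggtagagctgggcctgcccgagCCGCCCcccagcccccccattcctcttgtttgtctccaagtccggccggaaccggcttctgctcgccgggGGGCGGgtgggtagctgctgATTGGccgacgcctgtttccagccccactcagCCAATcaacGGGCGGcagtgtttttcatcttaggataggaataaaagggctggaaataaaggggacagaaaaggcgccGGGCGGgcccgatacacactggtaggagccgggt
Cxcr4: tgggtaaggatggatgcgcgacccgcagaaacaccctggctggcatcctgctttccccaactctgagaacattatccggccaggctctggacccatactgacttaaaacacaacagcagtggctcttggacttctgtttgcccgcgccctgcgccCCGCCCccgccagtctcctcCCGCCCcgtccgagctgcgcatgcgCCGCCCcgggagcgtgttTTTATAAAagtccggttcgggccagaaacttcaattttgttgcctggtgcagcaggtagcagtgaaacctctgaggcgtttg

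The SP box was present in 5 of these 6 promoters, CCAAT in 2, and the fragment of the CTCF core in 1, that of Cited2. Across all 459 protein-coding promoters whose start lies in one of the widest regions, 75.2% held the SP box, against 71.3% of the 5537 promoters that start in any region of all 4 lists and 47.0% of the 20085 promoters of the table. CCAAT was found in 49.7%, 46.4% and 38.1% of these sets, in the same order. The fragment of the CTCF core was found in 44.7%, 41.9% and 33.9%. The ETS pattern was in 18.1% of promoters in the widest regions and in 24.9% of those in all shared regions, and in 11.9% of the table. The CRE was in 4.14%, 4.50% and 2.30%, and TATAAA in 6.32%, 4.88% and 12.7%. Median GC content was 62.7%, 62.0% and 57.0%. A match describes letters in this window only.

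The widest regions had a lowest width of 827 to 5968 bp, with a median of 980.5 bp, against a median of 367 bp over the 12088. There were 8 that exceeded 2000 bp, 30 that exceeded 1500 bp and 223 that reached 1000 bp. The last one, at Ensa, an inhibitor of a phosphatase in the cell cycle (chr3:95624579-95625566), and the first one outside, on chromosome 6 with no gene within 100 kb, both had a lowest width of 827 bp, and the order of chromosomes separated them. A single peak per list made up 372 of the 500. More than 1 peak was found in 8.00% and 16.4% of the 500 in the KO lists and in 13.2% and 13.0% in the WT lists.

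**Figure D1:**
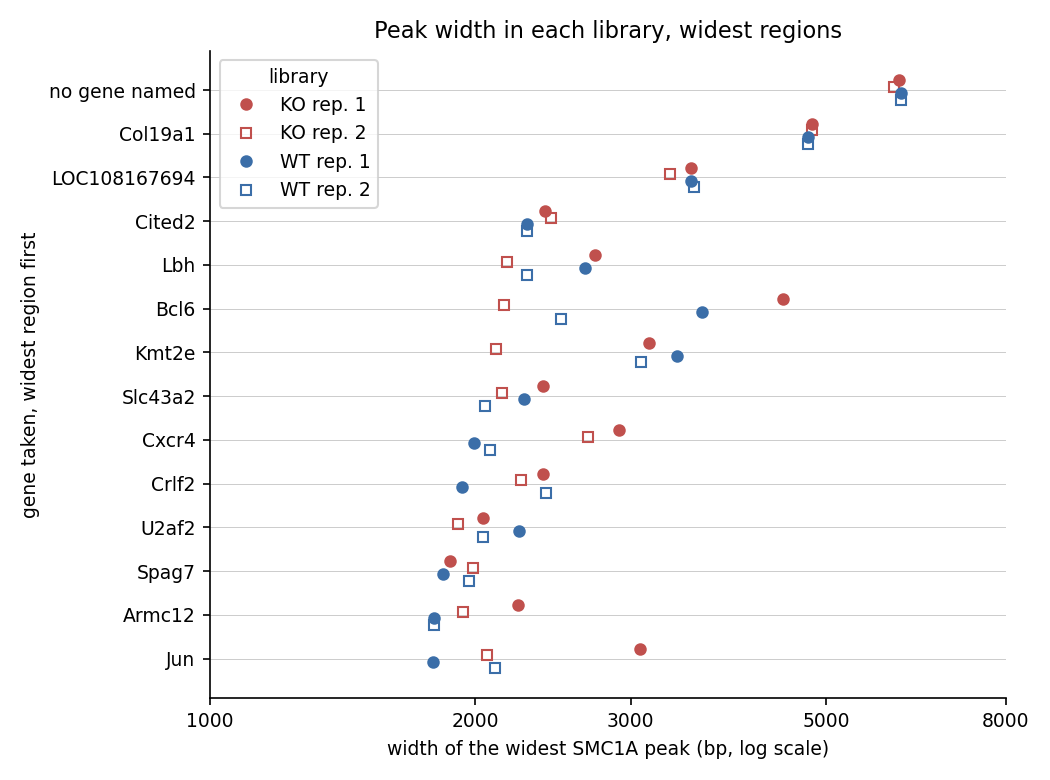
Width in bp (log scale) of the widest SMC1A peak in each of the 4 libraries for 14 of the 15 regions with the highest lowest width, from widest to narrowest. Each mark is 1 library, red for KO and blue for WT. The first 3 regions measure 3326 bp or more in every library, and Bcl6 spans 2158 to 4471 bp.

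The first 2 regions lie at pseudogenes, 107127 and 24745 bp from the nearest protein-coding gene. The first, chr17:39842840-39848934, contains Rn18s-rs5, a pseudogene related to 18S ribosomal RNA, and the non-coding AY036118. Its peak was 6049 and 5968 bp wide in KO and 6081 and 6079 bp in WT. The second, chr1:24611453-24616281, contains the pseudogenes Gm10222 and Gm10925 and was 4817 and 4816 bp wide in KO and 4774 and 4775 bp in WT. The widest CTCF peak at the first was 6078 and 1370 bp wide in KO and 6108 bp in WT. At the second it was 4841 and 4815 bp in KO and 4738 bp in WT. Whether the wide signal at these 2 regions depends on the antibody was not tested. They were the only 2 of the 500 with a local background over 10 reads in all 4 lists. The background was 65.7 and 38.6 reads in KO and 54.7 and 50.9 reads in WT at the first, against medians over the 500 of 1.14 and 0.686 in KO and 0.952 and 0.830 in WT. The summit fold enrichment is the authors' ratio of pile-up to local background, each with a constant added. It was 7.54 and 7.43 in KO and 14.8 and 15.5 in WT at the first. KO lay below WT there with no overlap. The log2 change was -1.12 (SE 0.305, limma adjusted p = 0.0718), which did not pass 0.05. With batch as a block the region was called (limma adjusted p = 0.0296), as it was with the pile-up in place of the fold (3.53e-06), and it was not called in the other 7 alternative fits, with adjusted p from 0.0785 to 0.341. The part of the high background in this difference was not tested.

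The other regions of the first 15 lie at or near genes, among them several of transcription control and signalling. The third, at LOC108167694, was 3510 and 3326 bp wide in KO and 3515 and 3538 bp in WT. Cited2 was 2401 and 2438 bp wide in KO and 2289 and 2291 bp in WT, with a summit 61 bp past its start in WT replicate 1. Lbh measured 2736 and 2174 bp in KO and 2660 and 2288 bp in WT. Both KO lists were wider than both WT lists at Cited2, both were narrower at LOC108167694, and the genotypes overlapped at Lbh. Bcl6, a repressor that directs follicular helper T cells, had a stretch of 2 to 5 peaks per list whose strongest summit in WT replicate 1 lay in the gene body, 3021 bp from a start (chr16:23982065-23987956). Its widest peak was 4471 and 2158 bp in KO and 3616 and 2501 bp in WT, so that the first replicate of each genotype was wider than the second. Kmt2e, which encodes a chromatin-reading protein, measured 3146 and 2109 bp in KO and 3389 and 3085 bp in WT. Slc43a2 measured 2388 and 2142 bp in KO and 2273 and 2051 bp in WT. The genotypes overlapped at both. Both KO lists were wider than both WT lists at Cxcr4, the receptor that keeps early thymocytes in the cortex, at 2911 and 2686 bp in KO and 1995 and 2080 bp in WT.

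Crlf2, the receptor chain for thymic stromal lymphopoietin, measured 2387 and 2255 bp in KO and 1930 and 2403 bp in WT. U2af2, a splicing factor, measured 2038 and 1912 bp in KO and 2241 and 2039 bp in WT. Both KO lists were narrower at U2af2, by 1 bp or more, and the genotypes overlapped at Crlf2. At Spag7 the widths were 1871 and 1987 bp in KO and 1837 and 1965 bp in WT. The region nearest Armc12, which starts at the non-coding E230001N04Rik, measured 2234 and 1937 bp in KO and 1796 and 1794 bp in WT. Jun, the AP-1 subunit, measured 3074 and 2059 bp in KO and 1789 and 2105 bp in WT. Both KO lists were wider at Armc12, and the genotypes overlapped at Spag7 and Jun.

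Over the 500, the median width was 1262 and 1080 bp in KO and 1109.5 and 1124.5 bp in WT, a mean of 1171 ± 129 bp in KO and 1117 ± 10.6 bp in WT (SD of the library medians, n = 2 each). The difference of 54 bp was smaller than the spread of the KO libraries. It was 152.5 bp in batch 1 and -44.5 bp in batch 2, so its sign depended on KO replicate 1, and without that library it was -37 bp. The same order of libraries was seen over the 12088, with medians of 562 and 449 bp in KO and 469 and 472 bp in WT. KO replicate 2 gave the lowest width in 195 of the 500 and KO replicate 1 in 42. At 130 of the 500 both KO lists were wider than both WT lists, 26.0% against 23.3% of the 12088, and at 63 both were narrower, 12.6% against 11.9%. The widest list exceeded the narrowest by a median of 1.32 times per region, and by more than 2 times at 37.

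**Figure D2:**
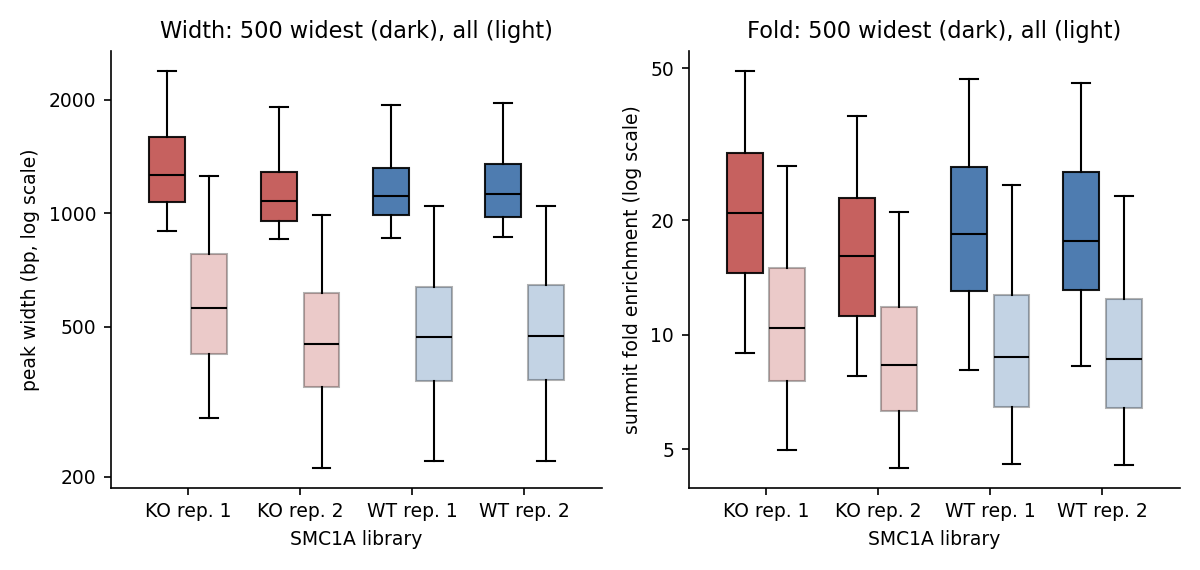
Peak width in bp and summit fold enrichment (both log scales) per SMC1A library for the 500 widest regions (dark) and all 12088 regions in 4 lists, which include them (light). Boxes are quartiles with the median, whiskers the 5th and 95th percentiles. KO replicate 1 has the highest median of the 4 libraries for both measures and both sets.

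Width and summit strength went together over all shared regions. Across the 12088, mean log2 width and mean log2 summit fold had a Spearman correlation of 0.62, and both come from the same libraries and pile-ups. Within the 500 it was 0.016, but these were cut from the upper end of the width range, which by itself lowers a correlation with width. The summit fold of the 500 had a median of 20.8 and 16.1 in KO and 18.3 and 17.6 in WT, against 10.4 and 8.35 in KO and 8.75 and 8.63 in WT over the 12088. Of the 500, 148 were also among the 500 regions with the highest lowest fold. The strongest was at Bcl2l1, which encodes the survival protein BCL-XL of DP thymocytes (chr2:152829409-152832322, rank 17), with a fold of 94.5 and 78.5 in KO and 100.4 and 96.2 in WT. A fold under 5 in at least 1 list was found in 5 of the 500. The 4 libraries placed the summit within a span of 100 bp in 38.6% of the 500 and 39.3% of the 12088. The summits were spread over more than 500 bp in 15.4% of the 500, against 3.90% of the 12088. Wider regions leave more room for this, and the part of width was not tested.

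The summit lay within 1 kb of a protein-coding transcription start in 72.4% and 71.8% of the 500 in the KO lists and in 72.8% and 72.6% in the WT lists, against 46.2% in both KO lists and 46.3% and 46.2% in the WT lists over the 12088. In WT replicate 1 these are 364 of the 500, with a Wilson 95% interval of 68.7 to 76.5%, against an interval of 45.4 to 47.2% over the 12088. All 4 libraries lay inside the interval of the 500. Intervals cover counting error only. In WT replicate 1 a further 10.0% of summits lay in a gene body and 17.2% outside genes, against 25.7% and 28.1% over the 12088. Within 250 bp of a start the share was 53.2%, against 38.4% over the 12088, and within 5 kb 82.0%, against 57.2%. A region covered at least 1 start in 73.2% of the 500 and 42.5% of the 12088, and the starts of 2 or more genes in 15.8% and 5.93%. Longer regions cover more bases, and the part of length in these shares was not tested.

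The strand of the nearest start was known for 313 of the widest regions at starts. Their summits lay a median of 125 and 122 bp upstream of the start in KO and 111 and 124 bp upstream in WT. Over 4724 regions of all 4 lists the median was 72 and 69 bp upstream in KO and 63 and 72 bp in WT. The regions themselves ran a median of 842 bp upstream and 617 bp downstream of the start, and 37.4% reached further downstream than upstream, against 39.0% of the 4724. The CTCF summit of WT replicate 1 lay a median of 116 bp upstream of the same 313 starts.

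**Figure D3:**
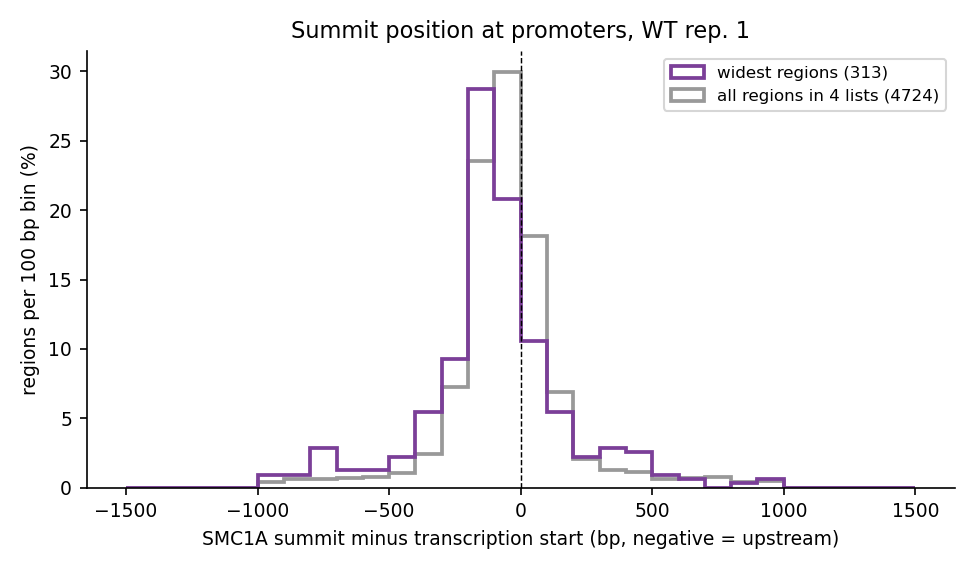
Distance in bp from the transcription start to the SMC1A summit of WT replicate 1, on the gene's strand, as the percent of regions in each 100 bp bin, for 313 widest regions and 4724 regions of all 4 lists, which include them. The fullest bin of the widest regions is 1 bin further upstream than that of all regions.

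At starts the widest regions had higher median folds than elsewhere, in each of the 4 lists, and starts were also highest over the 12088. The 364 at starts had a median fold of 22.4 and 17.0 in KO and 19.6 and 19.2 in WT. The 50 in gene bodies had 18.3 and 13.9 in KO and 15.5 and 15.6 in WT, and the 86 outside genes 18.0 and 14.0 in KO and 15.6 and 15.2 in WT. Over the 12088 the median was 11.7 and 9.09 in KO and 10.1 and 9.81 in WT at starts, and 9.59 and 7.72 in KO and 7.83 and 7.80 in WT in gene bodies. Outside genes it was 9.90 and 8.06 in KO and 8.15 and 8.13 in WT.

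Every one of the 500 overlapped a CTCF peak of the 3 lists joined, as did 99.5% of the 12088. In the single lists 500 and 494 did so in KO and 500 in WT, against 98.8% and 83.5% in KO and 97.4% in WT of the 12088. The CTCF peaks were themselves wide and strong there. Their median width was 2007 and 1017 bp in KO and 1494.5 bp in WT, against 1042 and 531 bp in KO and 770 bp in WT over the 12088. Their median fold was 35.3 and 6.98 in KO and 19.5 in WT, against 18.5 and 5.14 in KO and 11.3 in WT. The CTCF libraries differ widely in these medians, so folds are compared within a list. Among the 1000 widest CTCF peaks of a list was a peak of 41.4% and 49.4% of the 500 in KO and of 48.6% in WT, against 9.22% and 7.88% in KO and 8.32% in WT of the 12088. Where a region overlapped a CTCF peak of a list, a CTCF summit lay within 200 bp of the strongest SMC1A summit in 84.8% and 77.3% of the 500 in KO and 80.2% in WT, against 92.1% and 86.8% in KO and 90.7% in WT of the 12088. The share was thus lower in the 500 in each of the 3 lists. Wider regions leave more room between summits, and the part of width in this was not tested. SMC1A fold and CTCF fold had a Spearman correlation across the 500 of 0.80 and, over 494, 0.60 in KO and of 0.73 in WT. Over those of the 12088 that overlapped a CTCF peak of the list it was 0.66 and 0.44 in KO and 0.58 in WT. These are correlations between libraries of the same genotype and batch that share sequence and mappability.

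**Figure D4:**
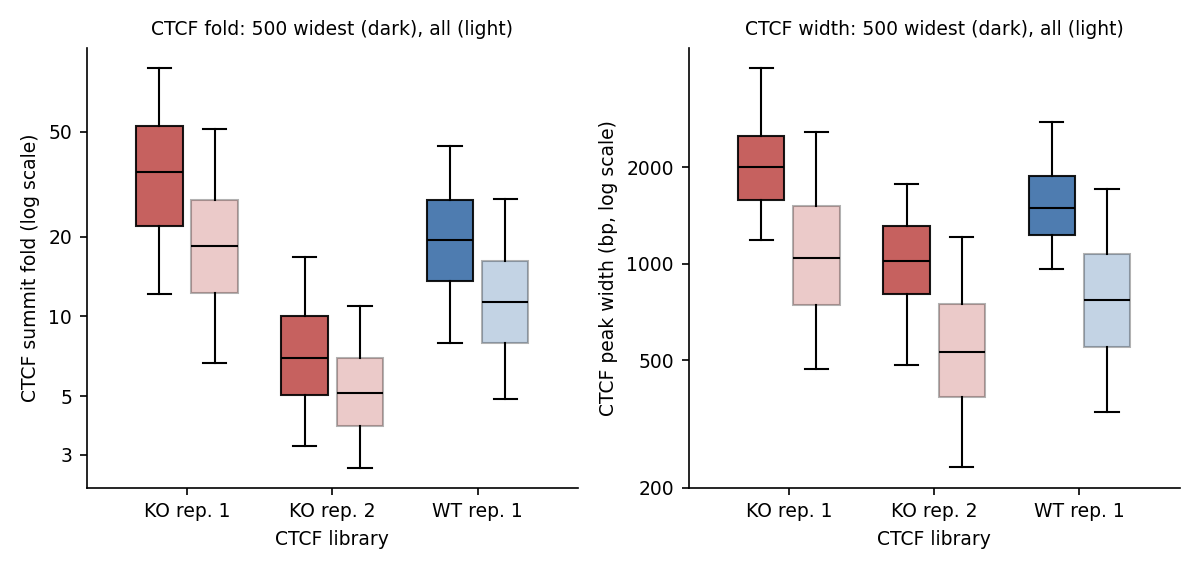
Fold enrichment and width in bp (log scales) of the CTCF peak in the 500 widest SMC1A regions (dark) and in all regions of 4 lists (light), which include them, per CTCF library. Boxes are quartiles with the median, whiskers the 5th and 95th percentiles. The median of the 500 is higher in each of the 3 libraries for both measures.

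Most of the 500, 488, held 1 merged CTCF region and 12 held 2. The first 4 of the 12 by width lay at Ephb6, a kinase-dead ephrin receptor of T cells, beside Tspoap1, at Dazap2 and in Jade2, a subunit of a histone acetyltransferase complex. The region beside Tspoap1 (chr11:87754349-87758059) contains the genes of miR-142, a microRNA of blood cells. It is described here after its values were seen. Its mature sequences from RefSeq (GRCm38.p6, chr11:87756867-87756887 and chr11:87756903-87756925 on the plus strand and chr11:87756906-87756925 on the minus strand), with the seed in capitals, show that the 3 have different seeds.
mmu-miR-142a-5p: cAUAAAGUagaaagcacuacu
mmu-miR-142a-3p: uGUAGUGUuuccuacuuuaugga
mmu-miR-142b: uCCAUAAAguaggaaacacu
The peak was 1277 and 1468 bp wide in KO and 2490 and 3474 bp in WT, so both KO lists were narrower. Each KO list had more than 1 peak there, 2 and 3, and the WT lists had 2 and 1. Its fold was 12.0 and 12.9 in KO and 15.6 and 14.6 in WT, and its log2 change of -0.38 did not pass (limma adjusted p = 0.65).

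Genes of small RNAs were found in few of the 500 in all. A microRNA gene lay in 6 of them, 1.20% against 0.339% of the 12088, and a tRNA gene in 10, 2.00% against 0.554%. Longer regions overlap more genes of any kind. The part of length in these shares and in the histone share that follows was not tested. Replication-dependent histone genes, which are clustered, started in 6 of the 500, 1.20% against 0.298% of the 12088, and 4 of these formed the largest group of neighbours within 20 kb, on chromosome 3. The region of H2ac19 and H3c15 in that group was 1586 and 1717 bp wide in KO and 989 and 1708 bp in WT. In all, 52 of the 500 had another within 20 kb, in 24 groups. Mnt, an antagonist of MYC, had 3 of them, with lowest widths of 1164, 1085 and 846 bp. Chromosome 7 held the most, 58, which is 6.11% of its regions in 4 lists, and chromosome 4 the lowest share, 2.40%.

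Of the protein-coding genes on chromosomes 1 to 19, 975 of 20665, 4.72%, had one of the 500 within 20 kb of the gene body, and 55.0% had any region of all 4 lists. Among the genes with any such region, 8.57% had one of the 500. DP thymocyte markers had none, 0 of 10, and all 10 had a region of the 4 lists. With 10 genes, a count of 0 is close to that share and is not read as a lack. T-lineage transcription factors had 9 of 39, at Bcl6, Myb, Sox4, Runx1, Patz1, Id2, Nr4a1, Ets1 and Nfatc3. The region counted for Nr4a1 covers the start of its neighbour Atg101. In Myb, a factor of thymocyte growth and survival, the peak was 2130 and 2040 bp wide in KO and 1363 and 1975 bp in WT. In Runx1, the factor that silences Cd4 at the earliest stages, it was 1596 and 1075 bp in KO and 1132 and 1180 bp in WT. Beside Sox4 the wider of 2 regions measured 2502 and 1107 bp in KO and 1082 and 1202 bp in WT. KO was wider with no overlap at Myb alone of these 3.

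T cell receptor and signalling genes had 2 of 28, Cd247, the CD3 zeta chain, and Lat, the adaptor. The region counted for Lat covers the start of its neighbour Spns1. Cd247 holds 2 of the 500 in its gene body. The first was 1446 and 1395 bp wide in KO and 2115 and 1567 bp in WT, narrower in both KO lists. The second was 1194 and 1513 bp wide in KO and 2278 and 1444 bp in WT, and there the genotypes overlapped. The list of cytokine receptor, chemokine receptor and regulatory T cell genes had 3 of 22. These were Cxcr4, Socs1, an inhibitor of cytokine signalling, and Tnfrsf4, for which the region covers the starts of Sdf4 and B3galt6. The peak at Socs1 was 2690 and 2436 bp wide in KO and 2405 and 1537 bp in WT, wider in both KO lists. Genes of cohesin, CTCF and nuclear architecture had 4 of 21, Ctcf, Stag1, Smc3 and Pds5b, the last by a region at the start of N4bp2l2. Within 20 kb of Ctcf itself lay 3 of the 500, and the widest of them, nearest to Ripor1, was 2024 and 1687 bp in KO and 1362 and 1274 bp in WT, wider in both KO lists. Survival genes had 2 of 19, Bcl2l1 and Bbc3, and growth genes 3 of 20, among them Myc and Notch1. The region counted for Bbc3 lies nearest to Ccdc9, and that for Notch1 covers the start of Sec16a. At Myc the peak was 1580 and 1708 bp wide in KO and 1069 and 1954 bp in WT.

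Housekeeping genes had 5 of 19, Actb, Hsp90ab1, Polr2a, Hspa8 and Ubb. The peak at Actb, cytoplasmic actin, was 1852 and 1535 bp wide in KO and 1539 and 1709 bp in WT. The CTCF-dense control clusters had 0 of 19, of which 6 had any region of the 4 lists. Markers of other cells had 1 of 7 for B cells (Cd79a), 1 of 6 for myeloid cells (Spi1), 0 of 4 for erythroid cells and 0 of 6 for thymic epithelium. The wider of 2 regions beside Cd79a covers the start of Arhgef1, and the region beside Spi1 that of Slc39a13. Peak lists give no RNA level, so these markers do not check the purity of the sort.

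The effect of Satb1 loss on cohesin at these regions was tested on the log2 summit fold, centred on the median of each library, with limma over all 12088 regions and Benjamini-Hochberg adjustment. Only regions with a peak in all 4 lists entered, and the 500 had to be wide in all 4. Full loss or gain of a peak was therefore not tested. At an adjusted p under 0.05, 2 of the 500 were called, 0.400%, against 48 or 0.397% of the 12088. One was higher in KO, 0.200% against 0.174%, and 1 lower, 0.200% against 0.223%. With batch as a block 6 of the 500 were called, 1.20% against 1.32%. These were the 2 below and the regions at Sp1, Cdk2ap2, Cic and Rn18s-rs5, all 4 lower in KO. In the fit of the centred fold without the block, none of the 15 widest regions was called. Their log2 changes ran from -1.12 at Rn18s-rs5 to 0.62 at Crlf2, with an adjusted p of 0.44 there (limma). At Cxcr4 the fold was 28.4 and 21.9 in KO and 26.8 and 11.6 in WT, a log2 change of 0.40 that did not pass (limma adjusted p = 0.62).

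The region called higher lies 46831 bp from Tnfaip3, which encodes the NF-kappa-B inhibitor A20, over the non-coding Gm51814 (chr10:19061908-19063274, rank 261). Its fold was 34.8 and 32.2 in KO and 12.8 and 16.2 in WT, without overlap. The log2 change was 1.11 (SE 0.248, limma adjusted p = 0.0251). Its width was 1263 and 1283 bp in KO and 1240 and 973 bp in WT. The CTCF fold there was 55.0 and 6.99 in KO and 6.33 in WT, where the medians of the lists over the 12088 were 18.5, 5.14 and 11.3. The call was made in 5 of 9 alternative fits. It was lost without centring (adjusted p = 0.0941), without KO replicate 2 (0.104), without WT replicate 1 (0.222) and without WT replicate 2 (0.0620), all limma values.

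The region called lower covers the start of C87436 (chr6:86437660-86439072, rank 349). Its fold was 10.7 and 9.15 in KO and 17.1 and 24.6 in WT, without overlap. The log2 change was -1.16 (SE 0.282, limma adjusted p = 0.0456). Its width was 1142 and 1011 bp in KO and 1332 and 906 bp in WT, which overlapped, and its CTCF fold was 22.5 and 7.15 in KO and 18.4 in WT. The call was made in 2 of 9 alternative fits, the block and the pile-up. It was lost when any one of the 4 libraries was left out, with adjusted p between 0.0519 and 0.382 (limma).

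**Figure D5:**
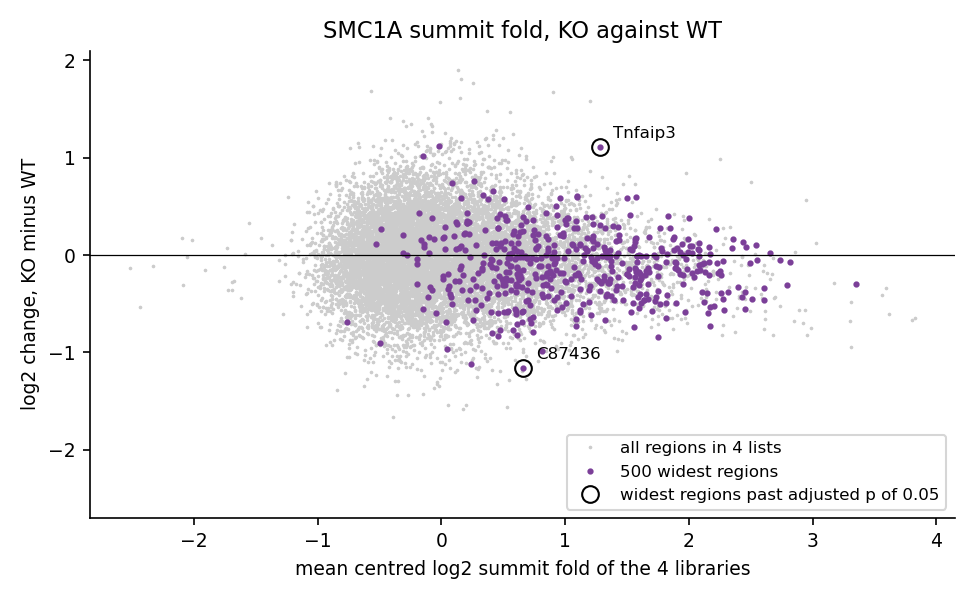
Log2 change of the SMC1A summit fold, KO minus WT, against the mean centred log2 fold of the 4 libraries, for the 500 widest regions (purple) and all 12088 regions (grey). Circles mark the 2 of the 500 past an adjusted p of 0.05, near Tnfaip3 at 1.11 and at C87436 at -1.16.

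Over the 500 the median log2 change was -0.11, against -0.03 over the 12088, and 321 of the 500, 64.2%, lay below 0, against 53.1%. Within batches the median was -0.08 in batch 1 and -0.16 in batch 2, against -0.04 and -0.02 over the 12088. Both KO lists were below both WT lists at 155 of the 500, 31.0% against 22.7% of the 12088, and above at 56, 11.2% against 19% of the 12088. These values moved with the scaling and with the KO library left out. Without KO replicate 1 the median was -0.14, against -0.02 over the 12088, with 66.8% below 0 against 51.5%. Without KO replicate 2 the median was -0.06, against -0.03 over the 12088, with 56.4% below 0 against 52.6%. Without centring the median was -0.01, against 0.07 over the 12088, with 50.6% below 0 against 43.0%. Both KO lists were then below both WT lists at 87 of the 500, 17.4% against 14% of the 12088, and above at 71, 14.2% against 23%. With quantile normalisation the median was -0.02, against -0.0019 over the 12088, with 52.8% below 0 against 50.2%. The library medians of log2 fold behind the centring were 3.38 and 3.06 in KO and 3.13 and 3.11 in WT.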

How the data were processed

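Per the labels, CUT&RUN was done on sorted DP thymocytes. Build mm10 and the tools MACS2, deepTools, Bowtie2, SAMtools, Trimmomatic 1.24 and R 4.12 are listed in the submitters' processing notes, with settings and peak-calling control not given in the sources used. The authors deposited 1 narrowPeak list per library, not pooled, with summit fold enrichment (a ratio), −log10 q and −log10 p. The highest deposited q was 0.0498. Depth is unknown from such lists, and no count model was used. Pile-up and background were solved from −log10 p and fold with MACS2's Poisson formula. The fold was taken as pile-up plus 1 over background plus 1. At backgrounds near 1 it is thus below the plain ratio and also depends on depth. The pile-up came out whole, with −log10 p met within 0.001, in 99.96% of peaks or more per list.

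The 500 regions, the 13 gene lists and the tests were chosen with earlier results of these data known. Named were the 15 widest regions (1 is not reported here), the last one and the first outside, the 4 with the most merged CTCF regions, those called by limma, and, per gene list, the widest region of up to 4 genes; others were named after their values were seen, among them the remaining listed genes, the miR-142 and histone regions and the Mnt group. No region lacked CTCF, so none could be named for that. A region took the protein-coding gene holding its WT replicate 1 summit, or the nearest within 100 kb. Genes and promoters came from RefSeq tables of GRCm38.p6. Transcription starts came from the promoter table for 16457 of 20665 protein-coding genes, and for the others either end of the gene was used. The gene table has no strand or exons, so exonic and intronic positions are not stated.

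Summit folds were tested with limma 3.58.1 (mean-variance trend) in R 4.3.3, on log2 values centred per library; widths chose the regions and are described only. Python 3.11.15, numpy 2.4.6, pandas 2.3.3 and scipy 1.17.1 were used, and steps were tested on simulated data. Batch and replicate number are the same in the labels, so same-numbered libraries are paired. The deviations of the replicate 1 libraries from their genotype means had a correlation of 0.0363 over 12088 regions. Alternatives were other scalings, the pile-up, −log10 q of 5 or more, the block, each library left out, 250 or 1000 regions, the median of the 4 widths, folds of 5 or more, other CTCF sets and other start distances. Added after seeing the data were leaving out the 2 regions with a background over 10, and choosing regions from 3 lists.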

Additional observations from a re-analysis of the deposited data

How the results depend on the processing

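Under the replicate block, 6 of the 500 regions were called for summit fold, where 2 were called without it, and within batches the width difference (KO minus WT) was 152.5 bp in batch 1 and -44.5 bp in batch 2. The number called was 0 without centring, 1 with quantile normalisation, 5 with the pile-up, 1 of 495 at −log10 q of 5 or more and 0 among the 250 widest. Over the fits that left out each library it was 0 to 1; the lone sample of a genotype was then assumed to vary like the others. Over the 12088 regions the number called was 15 without centring, 17 with quantile normalisation, 116 with the pile-up and 160 with the block, against 48. At −log10 q of 5 or more it was 21 of the 8388 regions tested. The number called over all regions thus also fell without centring and with quantile normalisation, and rose with the pile-up and the block. The median log2 change over the 500 moved beyond the spread between replicates without centring (-0.0055) and with quantile normalisation (-0.019). The median over the 12088 was then 0.0726 and -0.0019, against -0.031 in the main fit. Centring takes 1 constant from each library, so leaving it out shifts the 500 and the 12088 alike. The median over the 500 also moved without KO replicate 1 (-0.139) and without KO replicate 2 (-0.0593). These last 2 values bound its range with each library left out. The median over the 500 stayed below 0 in all 14 alternatives. That of all regions tested was also below 0 in each alternative fit except the fit without centring. The sign alone thus does not set the 500 apart. The width difference was -37 to 145 bp with each library left out, negative without KO replicate 1. The share at CTCF was 98.8% in KO list 2 alone and 99.0% for regions in all 3 CTCF lists, and 100% in the other 16 alternatives. The share at starts was 53.2% within 250 bp, 82.0% within 5 kb, 79.8% with all genes of the annotation, 66.8% for regions chosen by the median width, which share 349 of the 500, and 68.2 to 72.6% for regions chosen from 3 lists, which share 378 to 475. Leaving out the 2 regions of high background changed no call. The cause of these moves was not tested. With 2 libraries per genotype, unknown depth and no second WT CTCF list, the size of change that can be called is limited.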
